A study of Mus musculus with 8 samples.

Results

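Granzymes A to G and perforin, the cargo of cytotoxic granules, were read in the gravid d18.0 mouse uterus from 10 probe sets of the 28000 in the deposited table. The members were chosen by the gene symbol in the platform annotation. The symbols were Gzma, Gzmb, Gzmc, Gzmd, Gzme, Gzmf, Gzmg and Prf1, so 8 genes of the 13120 with a probe set of their own. Of the 10 probe sets, 9 carried a single gene symbol and 1 was annotated to both Gzme and Gzmd, and the latter is given apart. RNA of 1 pregnant mouse was hybridised to each of 8 arrays, with 4 wild-type females on a C57BL/6 background and 4 Cox-1 KO females labelled C57BL/6 x Sv129, all aged 6 to 16 weeks and at gestational day 18.0. The study's methods describe the second background as 129P2 and give a higher lower limit of age. They also say that fetuses, fetal membranes and placenta were taken off before RNA was made. The knockout removes Ptgs1 in the whole animal. All Cox-1 KO females were on the mixed background and all wild-type females on C57BL/6, so the deleted gene and the strain background cannot be told apart in this design. The study asked which transcripts of the uterus just before birth differ without cyclooxygenase-1, the enzyme that begins prostaglandin synthesis, and it picked Gzme among its candidates on these same arrays, so the values of Gzme are not independent evidence of that choice.

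Granzymes are serine proteases that cytotoxic lymphocytes store in granules and release towards a target cell, where perforin, the product of Prf1, opens the way into the cytosol. In the pregnant mouse the cells known to carry them in the greatest abundance are the uterine natural killer cells of the decidua, which are most numerous in mid-gestation and dwindle before birth. Gzma encodes a tryptase that cuts after basic residues and Gzmb a protease that cuts after aspartate and activates caspases. Gzmc to Gzmg belong to the rodent-specific part of the Gzmb gene cluster and are little used by other killer cells. In the RefSeq gene order the part of the cluster from Gzme to Gzmb on chromosome 14 stood as Gzme, Gzmd, Gzmg, Gzmn, Gzmf, Gzmc and Gzmb. No other protein-coding gene lay between them. Gzma lies on chromosome 13 and Prf1 on chromosome 10. No probe set of Gzmn was named in the annotation used here.

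The promoters of the members are shown because they separate Gzmc to Gzmg from the other members independently of any signal. RefSeq promoters of build GRCm38.p6, each of 250 bases before the transcription start and 50 after it, were found for all 8 genes. Among the 5 promoters of Gzmc to Gzmg, all 10 pairs aligned locally over 277 to 300 bases with 84.1 to 94.0% identity, and the highest identity was that of Gzmd and Gzme. In the other 18 pairs, which involve Gzma, Gzmb or Prf1, no local alignment was longer than 40 bases. The window of 80 bases upstream of the start in which the 5 promoters were most alike is given here 5′ to 3′ in the direction of transcription. Capitals mark the 10 positions at which the 5 genes were not all the same, and the other 70 were identical.
Gzmc, chr14:56234659-56234738, minus strand: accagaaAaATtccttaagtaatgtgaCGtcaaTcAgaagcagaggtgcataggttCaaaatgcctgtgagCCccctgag
Gzmd, chr14:56132599-56132678, minus strand: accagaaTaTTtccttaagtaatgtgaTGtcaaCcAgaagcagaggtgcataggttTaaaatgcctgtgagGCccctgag
Gzme, chr14:56120632-56120711, minus strand: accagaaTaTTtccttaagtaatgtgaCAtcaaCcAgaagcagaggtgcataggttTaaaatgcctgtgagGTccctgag
Gzmf, chr14:56211434-56211513, minus strand: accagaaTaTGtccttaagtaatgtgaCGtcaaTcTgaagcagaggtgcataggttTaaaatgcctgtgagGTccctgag
Gzmg, chr14:56159601-56159680, minus strand: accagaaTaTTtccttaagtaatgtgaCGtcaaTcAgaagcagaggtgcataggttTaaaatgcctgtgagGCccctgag

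Matches to short motifs were counted on both strands, as a description of these letters only. TGACGTCA, the cAMP response element, was found in Gzmc, Gzmf and Gzmg, within the window shown, and in 1.79% of all 32851 promoters. It was added to the search after the promoters had been read. TGTGGT, the core of a Runx site, was found in all 8 promoters and in 16.8% of all promoters. CAGGAA, an Ets site, was found in 6 members, all but Gzma and Gzmb, and in 30.6% of all promoters. TGANTCA, an AP-1 site, was found only in Gzmb among the members and in 7.81% of all promoters, and TCACACC, a T-box site, was found in no member and in 3.98% of all promoters. Of the steroid receptor elements, TGTTCT, to which the progesterone receptor binds, was found in Gzma alone and in 19.0% of all promoters, and AGGTCA, to which estrogen receptors bind, in Gzmc, Gzmd and Gzme and in 16.3%. The 5 alike promoters are copies of a common sequence, so their matches are not separate cases. For the 3 members whose promoters did not align with them, the upstream window of 80 bases that held the most matches is shown, with the matches in capitals.
Gzma, chr13:113100982-113101061, minus strand: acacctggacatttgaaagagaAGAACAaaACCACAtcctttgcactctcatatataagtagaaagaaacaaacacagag
Gzmb, chr14:56262348-56262427, minus strand: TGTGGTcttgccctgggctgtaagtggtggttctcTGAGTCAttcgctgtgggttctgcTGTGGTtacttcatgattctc
Prf1, chr10:61297706-61297785, plus strand: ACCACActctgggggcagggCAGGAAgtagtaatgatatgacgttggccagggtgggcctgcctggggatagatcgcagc

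Values are MAS5 signals, the summary that the array software computes over the probes of a probe set, on a linear scale with every array scaled to a target of 1000. Fold changes are Cox-1 KO over wild-type on the log2 scale from limma, fitted to the 26444 probe sets whose signal reached 100 on 4 or more arrays and adjusted by Benjamini-Hochberg over all of them. The level of a probe set also reflects its probes, so levels are compared between arrays and never between genes. Granzyme transcripts resemble each other, and a probe set whose name ends in x_at contains probes that can bind related transcripts, so Gzmd and Gzme cannot be fully told apart. In whole tissue, a difference in the number of granzyme-bearing cells and one in the granzyme RNA of each cell cannot be told apart either. Ptgs1 itself, on a probe set named through the study's additional file, read 7048 to 10756 on the wild-type arrays and 76 to 136 on the Cox-1 KO arrays. Apoa1, a yolk sac and liver apolipoprotein, had a signal of 55059 to 73950 on wild-type array 4 and Cox-1 KO arrays 1, 3 and 4, and of 183 to 631 on the other 4 arrays. No other labelled difference sets these 4 arrays apart.

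All 10 probe sets passed the filter and all 10 had a positive log2 fold change, between 0.26 and 0.62, against a median of -0.03 over all probe sets tested. Of all probe sets tested, 42.5% had a positive fold change. In 9 of the 10, all but Gzma, the limma p before adjustment was under 0.05, where 3.69% of all probe sets tested were higher at that threshold. None had an adjusted p under 0.05, and 0.0113% of all probe sets tested did. In 1 of the 10 the lowest Cox-1 KO array was above the highest wild-type array, against 1.5% of all probe sets tested. It was also the only 1 of the 10 with an exact two-sided permutation p under 0.05. In the other probe sets apart from Gzma that p was 0.0571 to 0.114. The probe sets share a family, a tissue and the same 8 arrays, so the 10 are not 10 separate observations of the genotype.

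**Figure D1:**
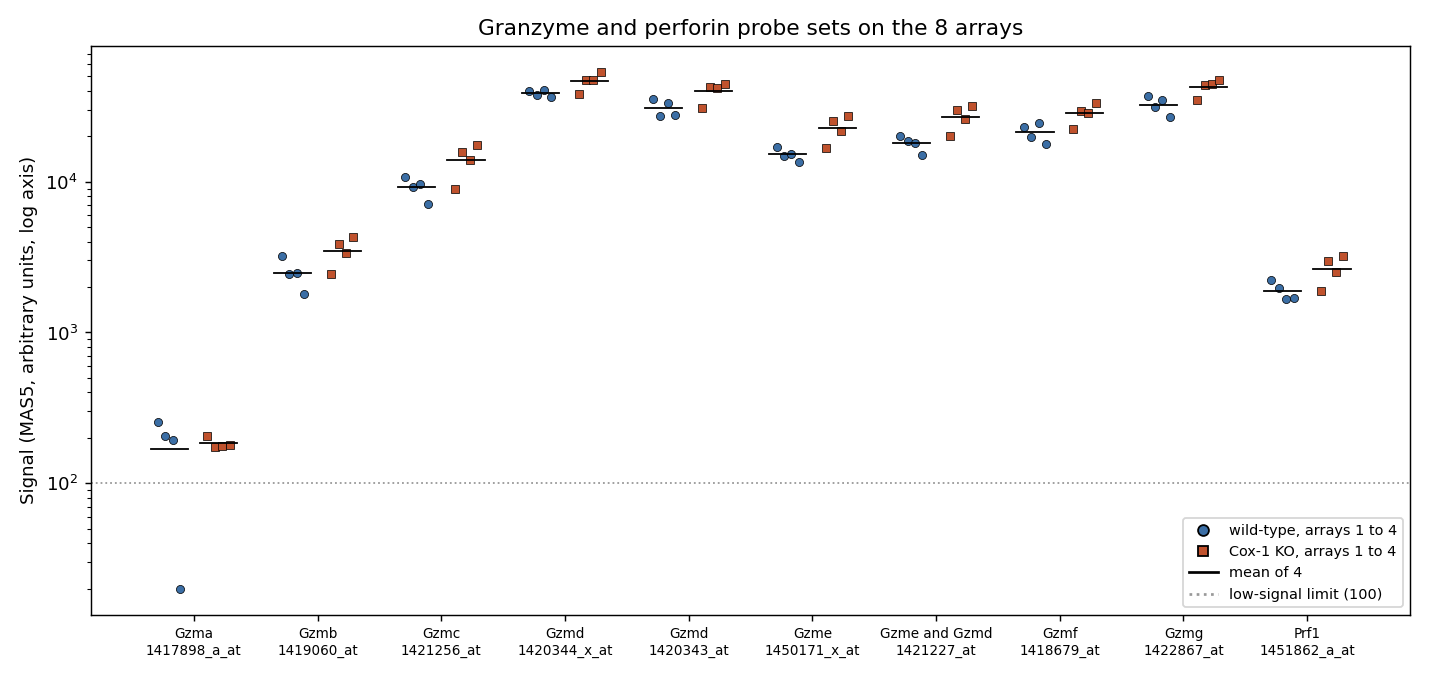
Signal of each of the 10 probe sets (log axis, arbitrary units) on the 4 wild-type arrays (circles) and the 4 Cox-1 KO arrays (squares), with the mean of each group as a bar and the low-signal limit of 100 as a dotted line. In each probe set but that of Gzma the leftmost square, Cox-1 KO array 1, is the lowest of the squares, and the Gzma signal of wild-type array 4 lies far below the others.

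Gzme, a granzyme of the Gzmb cluster, read 17069, 14794, 15342 and 13526 on wild-type arrays 1 to 4 and 16617, 25125, 21813 and 27195 on Cox-1 KO arrays 1 to 4. Cox-1 KO arrays 2, 3 and 4 were above every wild-type array, while Cox-1 KO array 1 lay just under wild-type array 1. The wild-type mean was 15183 ± 1470 (SD, n = 4), against 22688 ± 4614 (SD, n = 4) without Cox-1, a ratio of 1.49. The log2 fold change was 0.56 (95% interval 0.27 to 0.85), with an adjusted p of 0.309 by limma and an exact two-sided permutation p of 0.0571, where 0.0286 is the smallest that 4 arrays against 4 allow.

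The probe set annotated to both Gzme and Gzmd read 19977, 18483, 18146 and 14980 on wild-type arrays 1 to 4 and 20199, 29749, 26029 and 31946 on Cox-1 KO arrays 1 to 4. This was the member in which the groups did not overlap, by the narrow gap between wild-type array 1 and Cox-1 KO array 1. The log2 fold change was 0.58 (95% interval 0.29 to 0.87), the adjusted p by limma was 0.286 and the exact permutation p was 0.0286, the smallest possible. It was also the member that passed both thresholds of the methods' t-test, an unadjusted p of 0.05 and a ratio of mean signals of 1.5, which 0.416% of all probe sets tested passed in the higher direction. The present calls that the methods also required were not used here, and the signal filter at 100 stood in for them. Its adjusted p by the methods' t-test was 0.765.

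Gzmd, the nearest relative of Gzme by promoter sequence, was read by a pair of probe sets. The brighter of them read 39861, 37471, 40293 and 36117 in wild-type and 38085, 46842, 47497 and 53461 in Cox-1 KO uterus. The other read 35243, 27019, 32958 and 27673 in wild-type and 30813, 42133, 41570 and 44537 in Cox-1 KO uterus. On both, Cox-1 KO array 1 fell within the wild-type range and the other Cox-1 KO arrays above it. The log2 fold change was 0.26 (95% interval 0.07 to 0.46) on the brighter and 0.37 (95% interval 0.11 to 0.63) on the other, with adjusted p of 0.518 and 0.510 by limma. The brighter probe set had the smallest fold change of the 10.

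Gzmc, which lies beside Gzmb in the cluster, read 10653, 9213, 9715 and 7138 in wild-type and 8973, 15621, 13915 and 17543 in Cox-1 KO uterus. Cox-1 KO array 1 was lower than 3 of the 4 wild-type arrays, while the other Cox-1 KO arrays were above them all. Its ratio of mean signals, 1.53, was the highest of the 10, with a log2 fold change of 0.58 (95% interval 0.17 to 0.99) and an adjusted p of 0.506 by limma. Gzmf read 22860, 19676, 24456 and 17824 in wild-type and 22237, 29180, 28502 and 33350 in Cox-1 KO uterus, with a log2 fold change of 0.41 (95% interval 0.14 to 0.69) and an adjusted p of 0.480 by limma. Gzmg read 36709, 31166, 34775 and 26769 in wild-type and 34640, 43550, 44087 and 47246 in Cox-1 KO uterus, with a log2 fold change of 0.39 (95% interval 0.15 to 0.63) and an adjusted p of 0.423 by limma. In both Gzmf and Gzmg, as in Gzmc, only Cox-1 KO array 1 overlapped the wild-type arrays.

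Gzmb, the aspartate-cutting granzyme used by most killer cells, read 3232, 2452, 2465 and 1800 in wild-type and 2429, 3864, 3372 and 4291 in Cox-1 KO uterus. Cox-1 KO array 1 was lower than all wild-type arrays but array 4, and the other 3 Cox-1 KO arrays were above the wild-type range. The wild-type mean was 2487 ± 586 (SD, n = 4), against 3489 ± 800.2 (SD, n = 4) without Cox-1, with a log2 fold change of 0.49 (95% interval 0.07 to 0.91) and an adjusted p of 0.538 by limma.

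Prf1, which encodes the pore-forming protein perforin, read 2220, 1971, 1677 and 1694 in wild-type and 1884, 2962, 2531 and 3216 in Cox-1 KO uterus. The pattern was again that of 3 Cox-1 KO arrays above all wild-type arrays and Cox-1 KO array 1 among them. The log2 fold change was 0.47 (95% interval 0.12 to 0.81), with an adjusted p of 0.525 by limma and an exact permutation p of 0.0857.

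Gzma, the tryptase outside the Gzmb cluster, stood apart from the other members. It read 256, 207, 193 and 20 in wild-type and 206, 174, 178 and 180 in Cox-1 KO uterus. All Cox-1 KO arrays lay within the wild-type range, and wild-type array 4 was far below the other 7 arrays. The ratio of mean signals was 1.09, and the log2 fold change of 0.62 (95% interval -0.85 to 2.09) had an adjusted p of 0.808 by limma and an exact permutation p of 0.971. Without wild-type array 4 its log2 fold change was -0.24, so the direction of Gzma rested on that array. A signal of this size is close to the filter limit of 100, and no detection calls were used here.

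**Figure D2:**
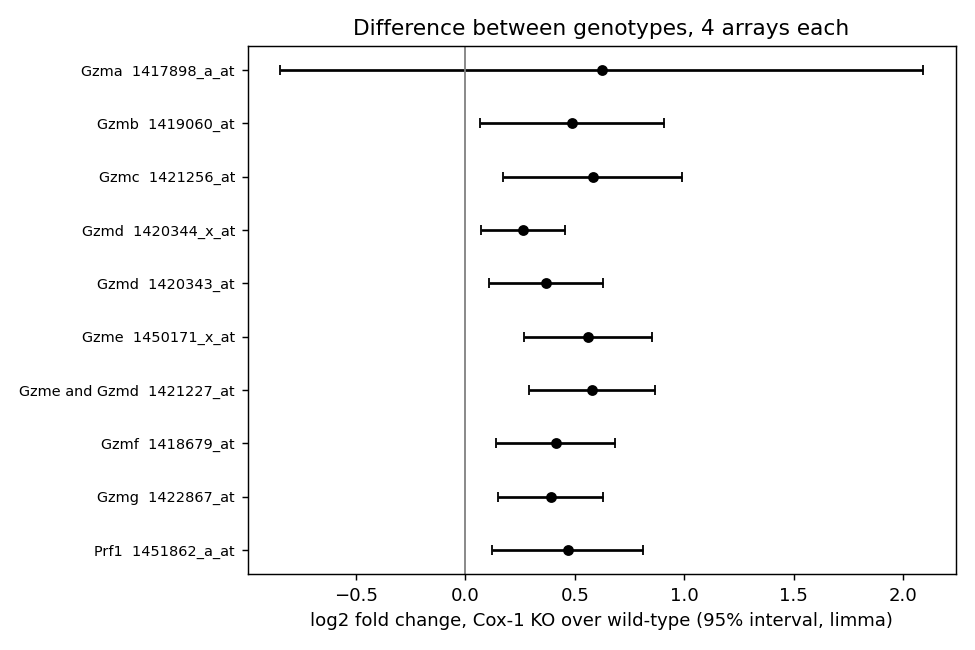
Log2 fold change of the 10 probe sets, Cox-1 KO over wild-type, with the 95% interval from limma (4 arrays in each group, vertical line at 0). The intervals of 9 probe sets lie above 0 before any adjustment for the number of probe sets tested, and that of Gzma runs from -0.85 to 2.09.

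Whether the granzymes of the cluster and perforin differed between the genotypes more than Gzma did was tested on the log2 ratio of each to Gzma on the same array. The 7 changes of this ratio lay between -0.36 and -0.04, with exact two-sided permutation p of 0.914 to 1 and a spread of 1.43 to 1.67 (SD) over the wild-type arrays, which hold the low Gzma value of array 4. With that spread, differences of the size of the members' fold changes could not have shown, so nothing is read from this comparison. With Gzmb as the reference, the change of the ratio was 0.10 for Gzmc, with wild-type and Cox-1 KO spreads of 0.12 and 0.07 (SD), and the exact permutation p was 0.200. It was -0.22 for Gzmd (exact permutation p = 0.257), 0.07 for Gzme (exact permutation p = 0.571) and -0.02 for Prf1 (exact permutation p = 0.943). No member was shown to differ from Gzmb in its response to genotype.

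The ranks of the arrays were nearly the same across the members. In the 9 probe sets other than that of Gzma, Cox-1 KO array 4 was the highest of all 8 arrays and Cox-1 KO array 1 the lowest of its group. Wild-type array 4 was the lowest of all 8 arrays in 7 of these 9, and wild-type array 1 the highest of its group in 7. In 8 of the 9, Cox-1 KO array 1 fell within the wild-type range. Spread between animals of 1 genotype was 5.16 to 23.5% of the mean in wild-type and 12.8 to 26.2% in Cox-1 KO uterus for these 9 probe sets.

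**Figure D3:**
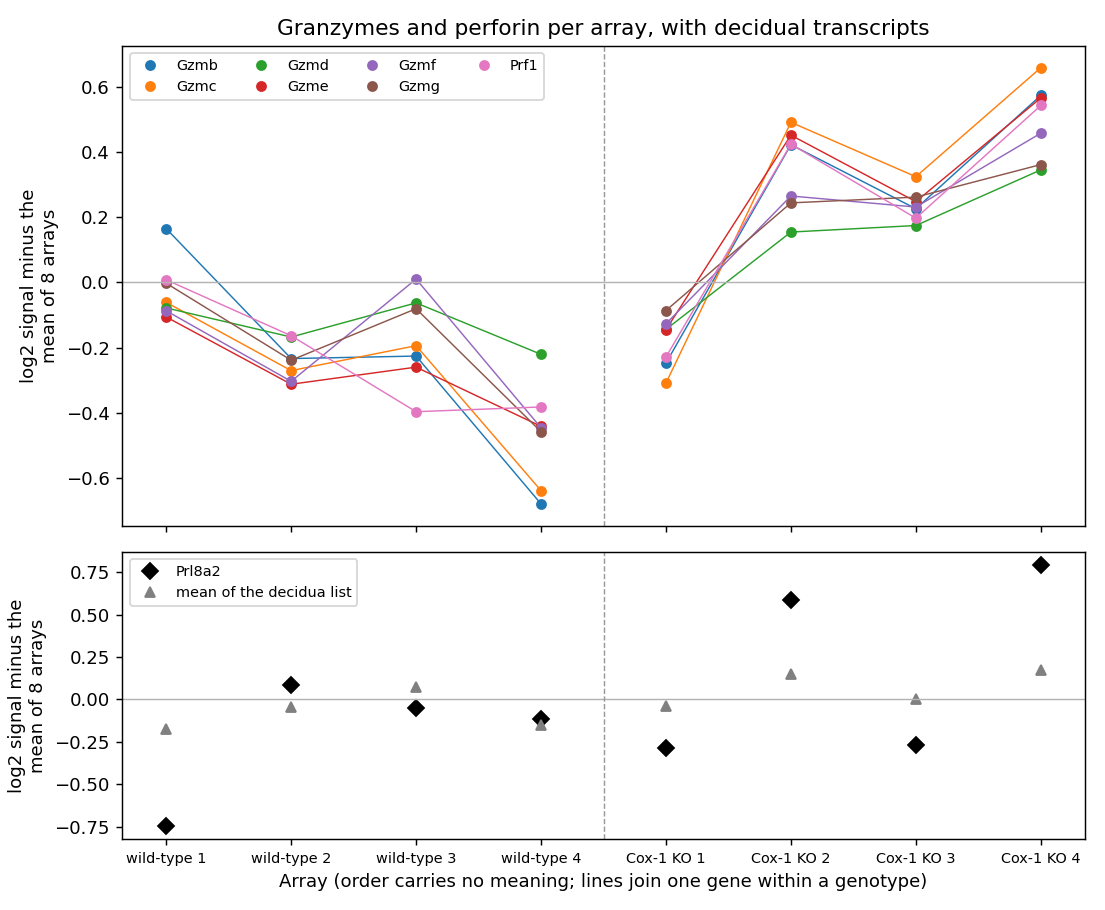
Upper panel, log2 signal of 7 members, all but Gzma, on each array, as the difference from the mean of the 8 arrays (Gzmd on its brighter probe set). Lower panel, the same for Prl8a2 and for the mean of the decidua list. The members move together within each genotype, with Cox-1 KO array 4 on top and Cox-1 KO array 1 among the wild-type arrays. Cox-1 KO arrays 2 and 4 are the highest in Prl8a2, where Cox-1 KO array 3 lies within the wild-type range. Wild-type array 1 is the lowest of the 8 arrays in Prl8a2 and in the mean of the decidua list.

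Co-variation was measured on the brightest single-gene probe set of each gene, as deviations from the genotype means over the 8 arrays, so that a difference between the genotypes could not produce it. Among the 28 pairs, 18 had an exact permutation p under 0.05 after Benjamini-Hochberg adjustment. The share of all pairs of genes that would pass was not computed, so the count is not read as particular to these members. The 21 pairs without Gzma had Pearson's r of 0.71 to 0.98, with a median of 0.93, and Spearman's rho of 0.57 to 1. All 10 pairs among Gzmc to Gzmg passed, with r of 0.88 to 0.98, rho of 0.88 to 1 and adjusted exact permutation p of 0.015 to 0.0162. Without the 2 arrays farthest from the median of the first gene of each pair, r of these 10 pairs was 0.69 to 0.99. The closest pair was Gzmc and Gzme, with r of 0.98 and rho of 1 (exact permutation p = 0.00174 for both, adjusted 0.015 and 0.0324), and r of 0.99 without the 2 arrays farthest from the median of Gzmc.

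Gzmb had r of 0.96 with Gzmc, 0.93 with Gzme and 0.95 with Gzmg. With Gzmd and Gzmf its r was 0.84 and 0.87, and 0.53 and 0.48 without the 2 farthest arrays. Perforin correlated with Gzme at r of 0.95 (adjusted exact permutation p = 0.0162), with Gzmc at 0.91 and with Gzmb at 0.90. Its correlation with Gzmd was 0.82, with Gzmg 0.77 and with Gzmf 0.71, and these 3 missed the threshold, with adjusted exact permutation p of 0.0716 to 0.125. Without the 2 arrays farthest from the median the r of these 3 pairs fell to between 0.14 and 0.36, so they rested on those arrays. Gzma had r of 0.22 to 0.60 with the other members, with no pair past the threshold, and r of -0.25 to -0.06 without the 2 farthest arrays.

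The number of pairs that passed leaned on single animals. Leaving out an array also leaves fewer permutations, so a lower count is not by itself a weaker correlation. Without Cox-1 KO array 1 none of the 28 pairs passed, the r of pairs without Gzma ran from 0.35 to 0.97 and their median was 0.81. Without Cox-1 KO array 4 none passed either, though the median r over the pairs without Gzma was 0.90, against 0.93 with all arrays. Across the other 6 arrays left out in turn, 12 to 21 pairs passed. All points of a correlation share the array, its RNA and its scaling, and the probe sets of Gzmd and Gzme may in part bind the same transcripts.

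**Figure D4:**
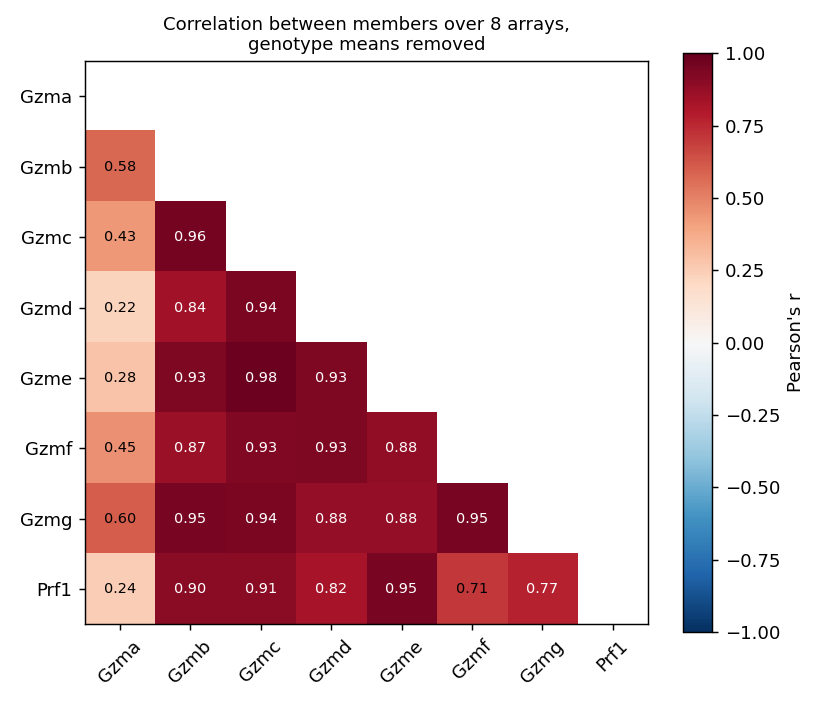
Pearson's r between each pair of the 8 members over 8 arrays after removal of the genotype means, each gene on its brightest single-gene probe set (colour scale from -1 to 1). The block of Gzmb to Gzmg has r of 0.84 to 0.98, the Prf1 row runs from 0.71 to 0.95 apart from Gzma, and the Gzma column holds the lowest values, 0.22 to 0.60.

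The genes whose log2 signal was most like the mean of the members over the 8 arrays, of 12654 genes compared, were Tspan31 (r = 0.956), Ctsg (r = 0.952), Crtac1 (r = 0.948), Eomes (r = 0.942), Tmsb15a (r = 0.941), Cst7 (r = 0.937), Tmem198 (r = 0.934) and Usp2 (r = 0.933). These are descriptions without a test, since the genes were picked for their r. Ctsg encodes cathepsin G, a granule protease of the same gene cluster, and read 1170, 1085, 1007 and 747 in wild-type and 915, 1290, 1335 and 1578 in Cox-1 KO uterus. Eomes, a T-box factor needed by natural killer cells, read 215, 254, 204 and 136 in wild-type and 221, 325, 276 and 338 in Cox-1 KO uterus. Cst7 encodes cystatin F, an inhibitor of the cathepsins that activate granzymes, and read 626, 629, 514 and 393 in wild-type and 532, 880, 691 and 824 in Cox-1 KO uterus. In all 8 genes picked, Cox-1 KO array 1 was the lowest of its group and wild-type array 4 the lowest of all, as in 7 of the 10 member probe sets. Picking by r favours this order, so it is not particular to Ctsg, Eomes and Cst7.

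With the genotype means removed, the genes most like the members were Fars2 (r = 0.977), Ccnq (r = 0.971), Dcun1d2 (r = 0.970), Ppox (r = 0.968) and Ifnz (r = 0.964). The low Gzma signal of wild-type array 4 weighs on that mean. Without Gzma, r was computed only over the 8 arrays with the genotype means left in, and was 0.16 to 0.70 for these 5 genes. The measure and the members both changed there, so the weight of Gzma alone is not shown. For the 8 genes picked over the 8 arrays, where only Gzma was taken out, r was 0.79 to 0.97, lowest for Tmem198 and highest for Tspan31.

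The other genes of the granule pathway were taken as lists, each gene on its brightest probe set, and no gene of any list had an adjusted p under 0.05 by limma. For the counts of positive and negative fold changes in this and the later lists, 42.5% of all probe sets tested had a positive one. Counts near that share say nothing particular about a list. Of the other proteases of the Gzmb cluster, 4 of 12 were measured. Mcpt4, a mast cell chymase, had a log2 fold change of -0.73 (adjusted p = 0.545 by limma), Ctsg of 0.35 (adjusted p = 0.597), Mcpt8, a basophil protease, of 0.72 (adjusted p = 0.600) and Cma1, another mast cell chymase, of -0.01. Of the genes for activation, storage and release of granzymes, 18 of 20 were measured, 12 with a positive and 6 with a negative fold change and a median of 0.07. The lowest p were those of Igf2r, the mannose 6-phosphate receptor, with a log2 fold change of 0.26, of Ctsh, a cathepsin that can activate granzymes, with 0.21, and of Lamp1, a granule membrane protein, with 0.10. Ctsc, the peptidase that activates most granzymes, had a log2 fold change of -0.02, and Srgn, the proteoglycan that holds granzymes in the granule, of 0.08, both named after their values were seen.

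Of the serpins that inhibit granzymes and related proteases, 8 of 10 were measured, 6 with a positive fold change. Serpinb9b, a relative of the Gzmb inhibitor, read 1181, 1654, 1703 and 1633 in wild-type and 1971, 2265, 1889 and 2388 in Cox-1 KO uterus. All Cox-1 KO arrays were above all wild-type arrays, with a log2 fold change of 0.47 and an adjusted p of 0.401 by limma. The next by p were Serpinc1, antithrombin, with 0.83 and Serpinb1a, an inhibitor of neutrophil proteases, with -0.19 on the log2 scale. Of the substrates and executioners of granule killing, 15 of 18 were measured, 6 positive and 9 negative, with a median log2 fold change of -0.0029, which was 0.0162 when all probe sets of a gene were averaged, and the lowest p for Nme1 (0.13), Endog (0.14) and Set (-0.14). None of these 15 had an unadjusted limma p under 0.05.

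Markers of the cells that could carry granzymes were mixed. Of 38 natural killer cell markers, 21 were measured, with 11 positive and 10 negative fold changes, a median of 0.05, and an unadjusted limma p under 0.05 in 4 that were higher and 2 that were lower, where 3.69% of all probe sets tested were higher and 5.12% lower at that threshold. The lowest p were those of Id2, a factor that natural killer cells need but many cells express, at 0.27, of Styk1, a kinase of natural killer cells, at -0.45, and of Itga1, an integrin of tissue-resident cells and muscle, at -0.19 on the log2 scale. Eomes had a log2 fold change of 0.54 (adjusted p = 0.552 by limma). Il2rb, the receptor chain shared by interleukins 2 and 15, read 418, 332, 437 and 308 in wild-type and 392, 431, 568 and 578 in Cox-1 KO uterus, a log2 fold change of 0.39. Klrd1, the CD94 receptor chain, read 779, 692, 620 and 376 in wild-type and 420, 696, 651 and 604 in Cox-1 KO uterus, a log2 fold change of -0.03. Klrd1 was lowest on wild-type array 4 and Cox-1 KO array 1, the order also seen in Gzmb and Gzmc. The other 17 markers of the list, among them Ncr1 and Klrb1c, were not analysed here, so the label of the cells rests on the markers named.

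Of 19 genes of interleukin 15 and interleukin 2 receptor signalling 14 were measured, 6 positive and 8 negative, with Il2rb the lowest in p and Socs2, a feedback inhibitor, and Il18, a cytokine that activates killer cells, next at -0.11 and 0.26 on the log2 scale. Of 21 T cell markers 4 were measured, with none under an unadjusted limma p of 0.05. These were Icos, a costimulatory receptor, at 0.35, Cd28 at 0.45, Cd5 at -0.25 and Zap70 at 0.01. Cd8a read 28 to 105 in wild-type and 80 to 140 in Cox-1 KO uterus and did not pass the filter. Of 12 mast cell markers 9 were measured, 1 positive and 8 negative, with a median of -0.17 and Mcpt4, Fcer1a (-0.64) and Tpsab1 (-0.45) the lowest in p. The 12 genes of uterine smooth muscle and stroma were all measured, 8 with a negative fold change and a median of -0.06. Over all probe sets tested the median was -0.03 and 42.5% were positive. The lowest p were those of Smtn (-0.13), Esr1 (-0.16) and Hoxa11 (-0.17).

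Decidual transcripts shared part of the pattern over the Cox-1 KO arrays. Prl8a2, a prolactin-family hormone of the decidua, read 15065, 26846, 24395 and 23379 in wild-type and 20769, 38058, 20973 and 43884 in Cox-1 KO uterus. Cox-1 KO arrays 2, 3 and 4 were above every wild-type array in each member but Gzma. In Prl8a2 this held for Cox-1 KO arrays 2 and 4 only, and Cox-1 KO array 3 lay within the wild-type range. Of 16 decidua markers 14 were measured, 11 with a positive fold change and a median of 0.11, with Wnt4 (0.46), Bmp2 (0.44) and Prl8a2 (0.41) the lowest in p. The mean of the list, as the difference from the 8 arrays, was -0.17 to 0.08 on the wild-type and -0.04 to 0.18 on the Cox-1 KO arrays. Wild-type array 1 was the lowest of the 8 in Prl8a2 and in this mean. In 7 of the 9 member probe sets other than that of Gzma it was the highest of its group. Wild-type array 4, the lowest of all in 7 of those 9, was at -0.15 in the mean of the list. With the mean of the list as a covariate, the members other than Gzma had log2 fold changes of 0.14 to 0.39, and an unadjusted limma p under 0.05 was left in 2 of 10, both the Gzme probe set and that shared by Gzme and Gzmd. With Prl8a2 as the covariate, chosen after the data were seen, they were 0.20 to 0.48, with 6 of 10 under 0.05. The share of all probe sets under 0.05 in these fits was not computed, so neither count is read as particular to the members. The share of decidua in each piece of uterus was not measured, and its part in the difference was not tested.

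The transcripts of yolk sac and fetal liver and those of trophoblast also differed between arrays. Of 25 yolk sac and fetal liver genes 20 were measured and all 20 had a positive fold change, with a median of 3.58 on the log2 scale and Rbp4 (0.26), Vil1 (1.82) and Amn (1.69) the lowest in p. Of 23 trophoblast markers 12 were measured, 7 positive and 5 negative, with Psg23 (-0.63), Cts3 (-1.40) and Psg28 (-0.59) the lowest in p. On the 4 arrays high in Apoa1, 1 wild-type against 3 Cox-1 KO, the log2 fold changes of the members without Gzma were 0.35 to 0.86. On the other 4 arrays, 3 wild-type against 1 Cox-1 KO, they were 0.26 to 0.68. Over all 8 arrays they were 0.26 to 0.58, and each of the within-set values has a lone array on 1 side, assumed by the fit to vary like the others. With the yolk sac mean as a covariate they were 0.32 to 0.83 and the lowest adjusted p was 0.131 by limma. With the trophoblast mean 9 of 10 had an unadjusted limma p under 0.05, and the share of all probe sets in that fit was not computed.

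Of the 8 arrays left out in turn, Cox-1 KO array 1 moved the fold change most in each of the 9 probe sets other than that of Gzma, where wild-type array 4 did. Without Cox-1 KO array 1, those of the members other than Gzma were 0.36 to 0.78, and the adjusted p by limma came down to 0.0941 for Gzme and 0.0966 for the probe set of Gzme and Gzmd. Across 25 alternative settings the members other than Gzma kept a positive fold change, from 0.14 to 0.86, and no member reached an adjusted p under 0.05 in any of them.

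**Figure D5:**
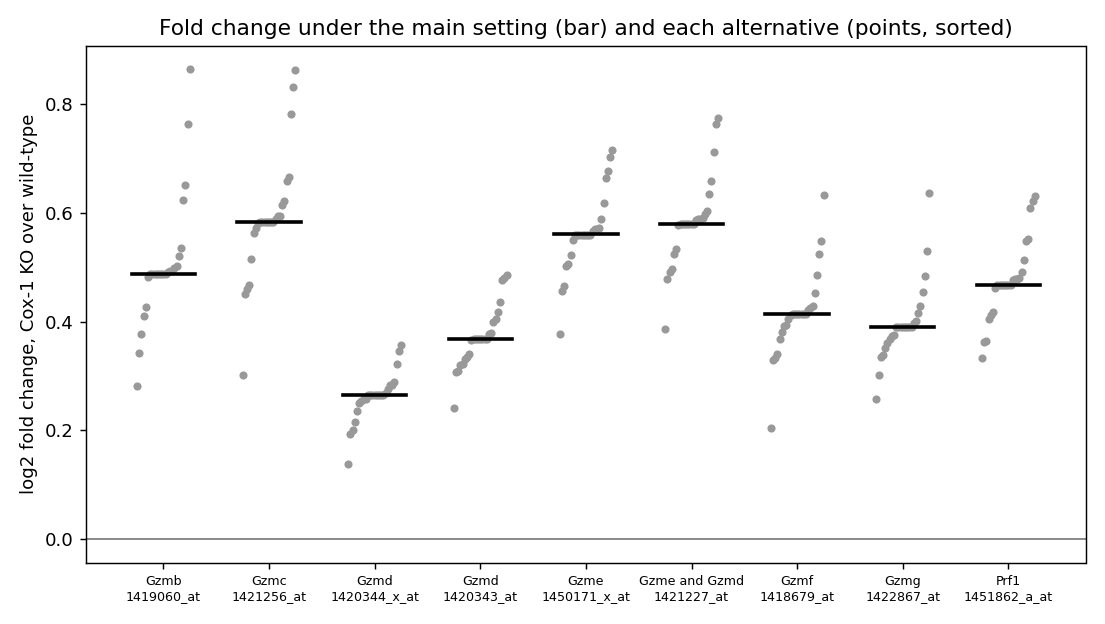
Log2 fold change, Cox-1 KO over wild-type, of the 9 probe sets other than that of Gzma under the main setting (bar) and under each alternative setting (points, in rising order). All points lie above 0, from 0.14 to 0.86.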

How the data were processed

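The authors computed signal intensities with the Affymetrix Microarray Suite (MAS5) from Affymetrix mouse 430 2.0 arrays, scaled each array to a target of 1000 and deposited them, unlogged, for 28000 probe sets, 60 of them array controls. How these were chosen and a genome build are not given in the sources used here, and no detection calls were used. In the platform annotation 23579 probe sets had 1 gene symbol, 653 several and 3720 none. Each array is 1 mouse of 4 per genotype. Arrays correlated at 0.944 to 0.976 and none were identical. The number of arrays limits the precision.

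Signals under 1 (1 value) were set to 1, log2 was taken with no constant, and limma 3.58.1 (R 4.3.3, trend on mean signal) was fitted to all probe sets whose signal reached 100 on 4 or more arrays, with Benjamini-Hochberg adjusted p-values at 0.05. It was tested on simulated data. Exact two-sided permutation tests used all 70 assignments of the arrays and co-variation used permutation within genotypes (Python 3.11.15, scipy 1.17.1). Promoters were aligned with mafft 7.526 and Biopython 1.88.

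The members and lists were chosen with earlier results of these data known. The text names every member probe set, the 3 genes of lowest p in each list, the 8 genes most like the members and the 5 most like them within genotypes, Ptgs1 and Apoa1. Other genes are named for their role after their values were seen. Alternatives were a constant of 32, a floor at 100, a filter at 200 or none, normalization by quantiles or by centring on the median, a fit with array weights, without the trend or robust, a replicate block, leaving out each array, the methods' t-test (unequal variances), covariates for decidua, trophoblast and yolk sac transcripts, Prl8a2 as a covariate (added after the data were seen), subsets by Apoa1 signal at 10000, linear signals, Gzmb in place of Gzma and averaging the probe sets of each gene.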

Additional observations from a re-analysis of the deposited data

How the results depend on the processing

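Over 25 alternative settings, 247 of 249 recomputed member fold changes kept their direction and none reached an adjusted p under 0.05, the lowest being 0.0941. The 2 that turned were those of Gzma, to -0.32 on the arrays low in Apoa1 and to -0.24 without wild-type replicate 4. The 9 probe sets with an unadjusted p under 0.05 became 2 with the decidua covariate and 4 with the methods' t-test, and stood at 8 to 9 with each array left out in turn. The share of all probe sets with an unadjusted p under 0.05 was computed for the main setting only. The median of the substrates and executioners list, -0.0029, became 0.0162 when the probe sets of each gene were averaged. The fold change of Gzma ran from -0.24 to 0.99 with 1 array left out. The 18 pairs with an adjusted permutation p under 0.05 became 0 to 21 when an array was left out, 0 without Cox-1 KO replicate 1 or 4. With a replicate block 8 of 10 probe sets had an unadjusted p under 0.05. With the genotype means removed, arrays of the same number correlated at -0.25 to 0.22 across genotypes, and those of different numbers at -0.60 to 0.39. The study's methods describe balanced sets of samples processed side by side, without naming them. Differences between arrays such as that in Apoa1 could hide a pairing, so these values do not decide whether the numbers pair the arrays. Gzma did not pass the filter at 200 and has no value there. Gzma is close to the low-signal limit, and 4 arrays in each group limit what can be detected for the others.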
